A study of Cyprinus carpio with 2 samples.

Results

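Splicing factors and heterogeneous nuclear ribonucleoproteins (hnRNPs) were followed in immature testis and ovary of juvenile common carp (Cyprinus carpio). The members were 191 of the 22634 unigenes analysed, a unigene being a numbered transcript unit with a protein and gene name. They were chosen by name alone, as the unigenes whose first gene name begins with srsf, sf3a, sf3b, snrp, snrnp, hnrnp, hnrp, prpf, u2af or lsm and a number. They carried 78 of the 9494 gene symbols. The count of members found only in the authors' testis list was 0, so all come from the expression table. None of the 191 stands in the authors' lists of 171 testis and 127 ovary unigenes.

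RNA sequencing covered 1 library of testis and 1 library of ovary, both from juvenile fish at 110 to 130 days post hatch. The labels name no strain, treatment or genotype and do not say how many fish each library holds. Since each tissue has a single library, no difference was checked against replicates and no p-value is given. In such bulk samples, fewer cells of a type and less RNA per cell cannot be told apart.

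Splicing removes introns from messenger RNA precursors in the spliceosome, which is built from small nuclear ribonucleoprotein particles (snRNPs). The U1 particle recognises the start of an intron, U2AF and the U2 particle its end and branch point, and the U4/U6.U5 tri-snRNP then joins. SR proteins, named for their runs of arginine and serine, and hnRNPs bind exons and introns and shift the choice of splice sites. In growing oocytes many transcripts are stored untranslated, and some relatives of the LSm proteins of the spliceosome act in that storage.

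The deposited values are taken as reads per unigene divided by a size factor for each library. They rise in steps, each taken as 1 read. The tables held 1926860 testis reads and 4311799 ovary reads, of which the members took 31059 in testis (1.61%) and 56086 in ovary (1.3%). A member had a median of 124 testis reads and 181 ovary reads, against 29 testis and 35 ovary reads for all unigenes. The lowest value of a member was 1 read in either library, and no unigene of the table is listed at 0, so transcripts read in a single tissue are not covered here. Columns carry no tissue name and were assigned from the titles of the authors' lists. The labelled tissues were checked against defining markers. Of 5 testis markers, amh, Dmrt1-1, sox9a, wt1a and cldn11a, all 5 were higher in testis, with 2303 testis and 32 ovary reads together. Of 7 oocyte markers, among them zp2.2, gdf9 and figla, 0 were higher in testis, with 10895 testis and 194313 ovary reads together. The oocyte markers took 0.565% of the testis reads and 4.51% of the ovary reads. For the testis markers these shares were 0.12% and 0.000742%. No oocyte marker was at 0 in testis, which says nothing further, since no unigene of the table is listed at 0. Of 3 muscle markers, 0 were higher in testis, with 36 testis and 932 ovary reads together, and 1 liver marker had 1 testis and 37 ovary reads. The part of the muscle and liver marker reads, and of the oocyte marker reads in testis, in the differences below was not tested.

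Folds below are ratios of testis to ovary values divided by the median ratio of all unigenes, since as deposited that ratio favoured ovary by 1.78-fold. The size factors thus did not bring the median ratio to 1. A step, taken as 1 read, is 2.31 units in ovary and 1.73 units in testis. In this way the size factors moved the ratio further toward ovary, the library with more reads, and why was not tested. A fold toward testis of under 1.78 therefore turns to ovary in the deposited values, and a fold toward ovary of under 1.68 turns to testis if both libraries are set to equal total reads. Brackets give the exact 95% interval of the ratio of reads, which covers counting error only. The score is the same ratio on the log2 scale after adding 1 unit to each value, so that 0 is the median of all unigenes and 2 is a 4-fold difference. It understates differences of low unigenes. Levels are not compared between genes, because unigene lengths are not used here.

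The members as a group sat at the middle of the table. Their median score was 0.01, and 50% of them lay between -0.92 and 0.80, against -1.06 and 1.11 for all unigenes. A difference of less than 2-fold was seen for 108 of the 190 members that reached 5 units in one library (56.8%), against 45.5% of all unigenes. At least 4-fold differences toward testis were found for 18 members (9.47%), where 13.8% of all unigenes passed, and toward ovary for 16 members (8.42%), where 11.2% of all unigenes passed. Both shares are below the background, but the shares were not matched for read number, and the members have more reads than the typical unigene. With a minimum of 20 units they were 8.99% toward testis (background 12.2%) and 8.47% toward ovary (background 13.6%). With rows found only in the testis list left out, the testis background was 13.2%. In the values as deposited the split was 6 toward testis (3.16%, background 6.14%) and 38 toward ovary (20%, background 23.2%). The counting interval excluded the median unigene toward testis for 71 members (37.2%, background 27.5%) and toward ovary for 74 (38.7%, background 30.1%). More reads give narrower intervals, and the members have more reads than the typical unigene.

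**Figure D1:**
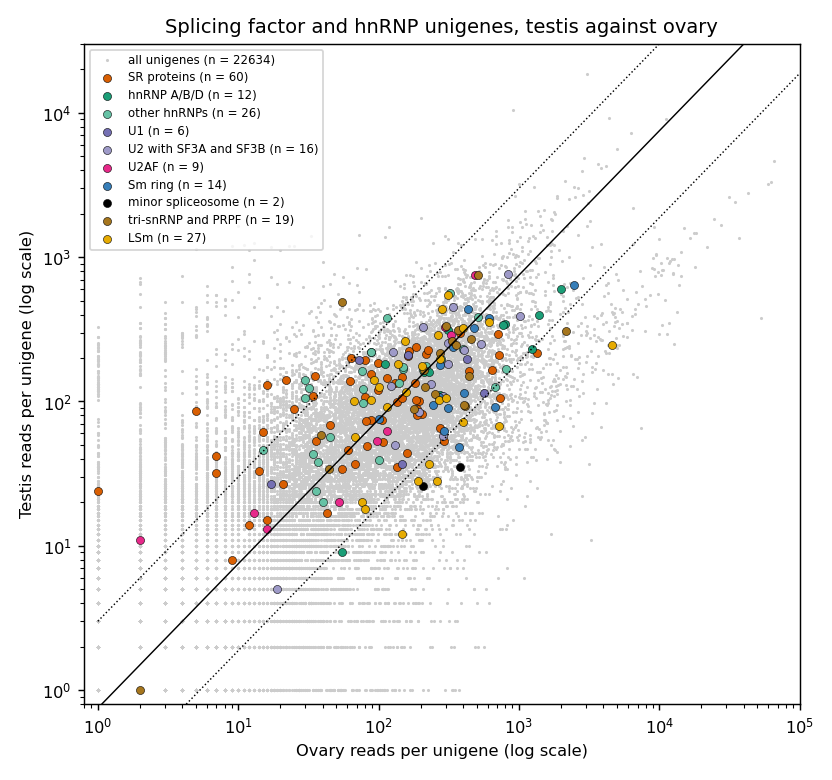
Testis reads (vertical, log scale) against ovary reads (horizontal, log scale) for each of the 191 members, coloured by role, over all 22634 unigenes in grey. The solid line is the median ratio and the dotted lines are 4-fold differences from it. Most members lie between the dotted lines, with an LSm unigene at 247 testis and 4620 ovary reads far to the ovary side and a PRPF unigene at 486 testis and 55 ovary reads far to the testis side.

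One property of the table runs through every value. Split by number, the 11904 unigenes up to Unigene_23679 (the lower range) had a median testis to ovary ratio of -1.79 on the log2 scale. The 10730 from Unigene_23712 on (the upper range) had 0.32. The members followed the numbers too, with a median score of -0.80 for the 87 in the lower range and 0.61 for the 104 in the upper range. All 18 members called toward testis are in the upper range, and 14 of the 16 called toward ovary are in the lower. In the whole table, 0.2% of the lower range and 29.1% of the upper range passed toward testis, and 19.4% of the lower and 1.89% of the upper range toward ovary. Of the 37 member symbols with unigenes in both ranges, 31 had the higher median score in the upper range. The same was true of 4298 of 4490 symbols of the whole table. What sets this difference was not tested. Folds of the called members that are named are therefore also given relative to the median of their own number range, and symbols are also given with their unigenes summed. Of the symbols higher in testis, 13 have all their unigenes in the upper range, and 12 of these sums turn to ovary relative to that range. Of those higher in ovary, 19 are wholly in the lower range, and 6 turn to testis. Measured against their own range, 6 members passed 4-fold toward testis (3.16%, background 5.45%) and 14 toward ovary (7.37%, background 7.29%).

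**Figure D2:**
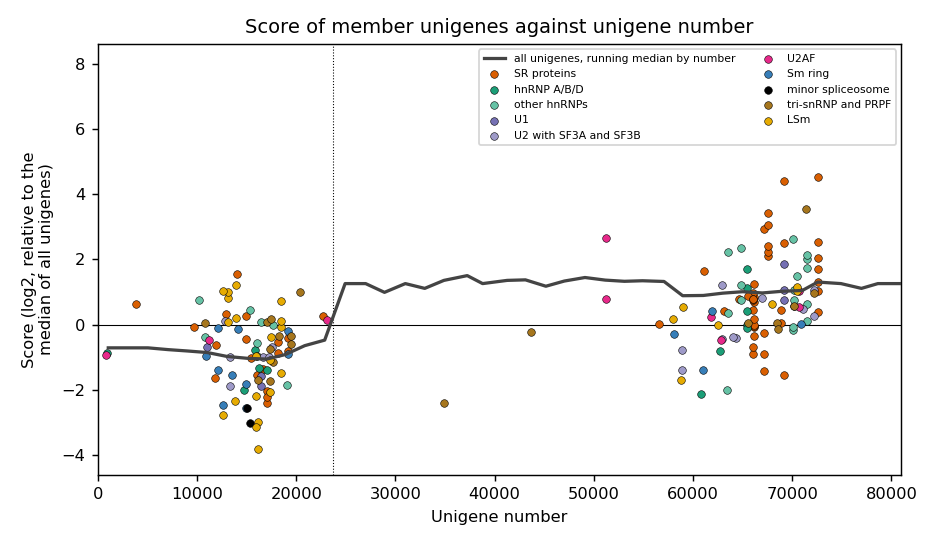
Score of each member (vertical, log2) against its unigene number (horizontal), coloured by role, with the running median score of all unigenes as a line. The line steps up between the lower and the upper number range (dotted), and members on the left lie mostly below 0 and members on the right mostly above 0.

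Under 5 ways of scaling the libraries (median ratio, values as deposited, trimmed mean of log ratios, equal total reads, and the median of the number range), 4 members passed 4-fold toward testis each time (2.11%, background 4.83%). Another 4 passed it toward ovary each time (2.11%, background 5.01%). Toward testis these were 1 unigene each of prpf4bb, srsf1b, srsf6b and srsf11. Toward ovary they were both unigenes of lsm14b and 1 unigene each of lsm8 and snrnp25.

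**Figure D3:**
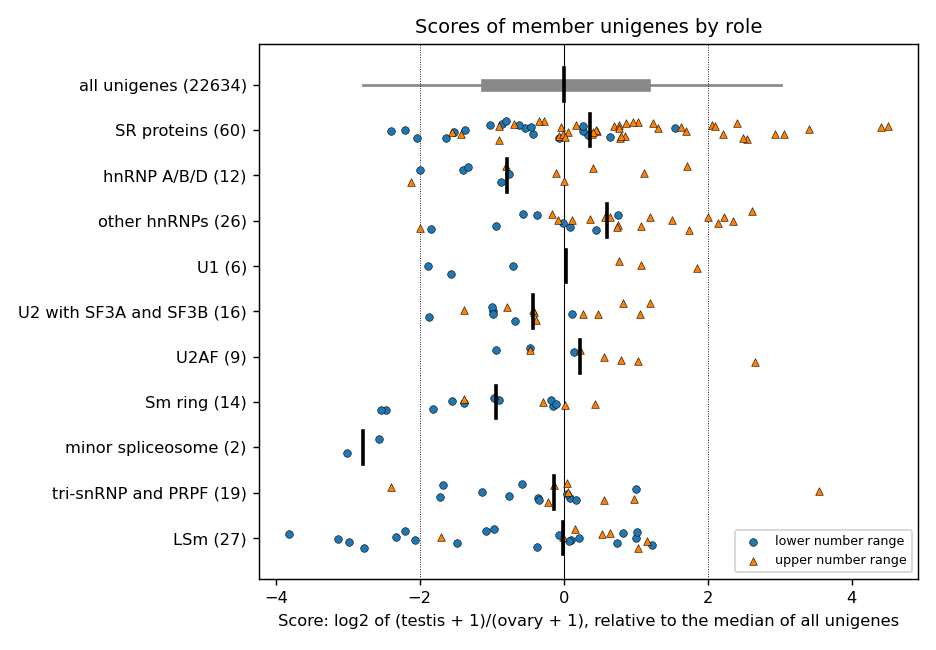
Score (log2) of every member by role, with a black bar at the median of each role, circles for the lower and triangles for the upper number range. The top row gives all unigenes as the central 50% (thick) and 90% (thin). SR proteins and a PRPF unigene reach furthest toward testis, LSm proteins and both minor spliceosome unigenes furthest toward ovary.

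The SR proteins made up 60 unigenes of 13 symbols, 36 with a score above 0 and 24 below. Their median score was 0.36, but -0.22 relative to the number ranges and -0.47 as deposited, so the group has no stable direction. They held 11 of the 18 members called toward testis (18.3% of the 60, background 13.8%) and 3 of the 16 called toward ovary (5%, background 11.2%). All 11 are among their 41 unigenes of the upper number range, or 26.8%, where 29.1% of all unigenes of that range passed. The splicing regulator srsf6b led the testis side with 7 unigenes. Its unigenes numbered 67587 to 67591 had 88, 140, 110, 61 and 131 reads in testis, against 25, 22, 34, 15 and 16 reads in ovary. All 5 were between 4.31-fold and 10.9-fold higher in testis. They are in the upper number range, and relative to it they were 1.94-fold to 4.91-fold higher in testis, with Unigene_67591 alone past 4-fold. The remaining srsf6b unigenes had 52 and 46 testis reads against 107 and 61 ovary reads. Summed over all 7, srsf6b was 2.99-fold (2.59 to 3.46) higher in testis, with 628 testis and 280 ovary reads.

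The symbol srsf1b, a carp form of SRSF1, the founding SR protein, split in opposite directions. Unigene_69159 had 86 testis and 5 ovary reads and was 22.9-fold (9.46 to 72.4) higher in testis, or 10.3-fold relative to its number range. Unigene_69160 had 149 testis and 35 ovary reads and was 5.68-fold (3.91 to 8.46) higher in testis, or 2.55-fold relative to its range. Unigene_17011 and Unigene_17013 had 105 and 218 testis reads against 739 and 1343 ovary reads. These were 5.28-fold (4.3 to 6.54) and 4.62-fold (4 to 5.36) higher in ovary, or 2.71-fold and 2.37-fold relative to their range. The pair high in testis is in the upper number range and the pair high in ovary in the lower, and relative to the ranges Unigene_69159 alone of these 4 stays past 4-fold. No other member symbol had unigenes called both ways. The last srsf1b unigene was low, with 14 testis and 12 ovary reads. With all 5 summed, the symbol was 2.8-fold (2.55 to 3.07) higher in ovary, since the ovary-rich unigenes carry most of the reads. Its relative srsf1a was 3.22-fold (2.77 to 3.74) higher in ovary. The ratio of testis to ovary reads for srsf1a divided by that for srsf1b was 0.87 (0.728 to 1.04), an interval that includes 1.

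The unigenes of srsf11, 9 in number, ranged in score from -0.86 to 4.51. The top one rests on 24 testis reads and 1 ovary read, a ratio of 32-fold with an interval of 5.22 to 1320, or 14.4-fold relative to its number range. Unigene_72628, with 32 testis and 7 ovary reads, was 6.1-fold (2.64 to 16.4) higher in testis, or 2.74-fold relative to its range. The unigene with the most reads, Unigene_18173, had 292 testis and 706 ovary reads and was on the ovary side. Summed, srsf11 was 1.24-fold (1.15 to 1.33) higher in testis. A similar case was srsf10b, whose 6 unigenes ranged in score from -1.63 to 2.93. Its Unigene_67164, with 42 testis and 7 ovary reads, was 8-fold (3.56 to 21.1) higher in testis, or 3.6-fold relative to its range. The sum was 1.91-fold (1.63 to 2.24) higher in ovary. By contrast the 9 unigenes of srsf2a, which encodes a form of SC35, kept between scores of -1.03 and 1.24. With 979 testis and 1301 ovary reads, their sum was at the median unigene, a ratio of 1 (0.923 to 1.09). The sum of srsf5a was 2.14-fold (1.81 to 2.53) higher in testis and that of srsf4 2.31-fold (1.99 to 2.67) higher in ovary. Between these lay srsf3a, srsf3b, srsf6a, srsf7a and srsf9, all within 1.5-fold of the median unigene. Of these, srsf6a, wholly in the upper range, was 1.91-fold higher in ovary relative to it.

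**Figure D4:**
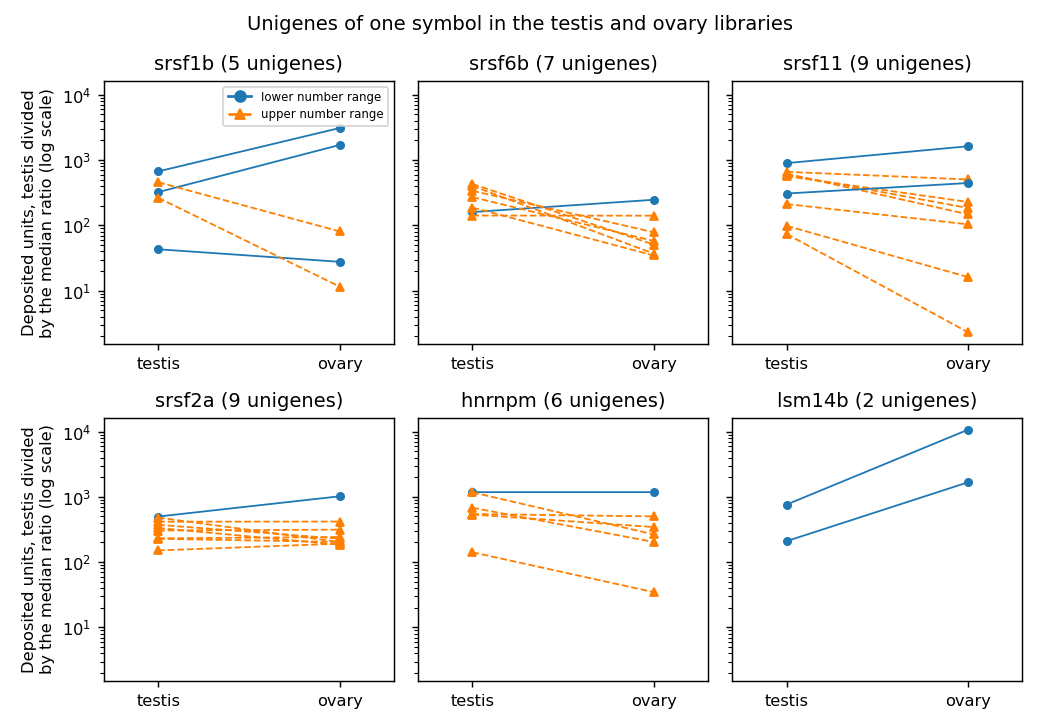
Values of the unigenes of 6 symbols in testis (left) and ovary (right) in deposited units on a log scale, with testis divided by the median ratio so that a flat line is the median unigene. Circles with solid lines are unigenes of the lower number range and triangles with dashed lines those of the upper. The lines of srsf1b cross, most lines of srsf6b, srsf11 and hnrnpm go down toward ovary, and both lines of lsm14b go up.

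The hnRNPs are given by family, and symbols higher in testis and symbols higher in ovary occurred both in the A, B and D type and among the others. Those of the A, B and D type, which bind exons and introns and often oppose SR proteins, numbered 12 unigenes with a median score of -0.78. Relative to the number ranges it was -0.63. Of the 12, 9 scored below 0. With equal total reads the median was -0.03. The unigene with the most reads, hnrnpabb (Unigene_16280), had 599 testis and 2003 ovary reads. It was 2.51-fold (2.29 to 2.75) higher in ovary, or 1.29-fold relative to its number range. The sum of hnrnpa1b, a form of the classic splicing repressor hnRNP A1, was 2.24-fold (2.06 to 2.44) higher in ovary. Its lowest unigene, with a score of -2.12, was the 1 called toward ovary among the 12 (8.33%, background 11.2%). Called toward testis were 0 (background 13.8%). That hnrnpa1b unigene is in the upper range, and relative to it the score was -3.26. The sum of hnrnpa0l was 3.29-fold (2.92 to 3.71) higher in ovary, while hnrnpa0b, with 474 testis and 527 ovary reads, was 1.20-fold (1.06 to 1.36) higher in testis. These related symbols differed in their ratio by 3.94-fold (3.31 to 4.7). Both hnrnpa0l unigenes are in the lower number range and both hnrnpa0b unigenes in the upper, and relative to these ranges the sums were 1.69-fold and 1.85-fold higher in ovary, so the difference between them is not seen there. The other symbol of the family on the testis side was hnrnpd, which binds AU-rich elements, at 560 testis and 429 ovary reads or 1.74-fold (1.53 to 1.98) higher in testis. Its 3 unigenes are in the upper range, relative to which the sum was 1.28-fold higher in ovary.

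The other hnRNPs, 26 unigenes of 9 symbols, had a median score of 0.61, or 0.18 relative to the number ranges, but -0.22 as deposited. They held 5 unigenes called toward testis (19.2%, background 13.8%) and 0 called toward ovary (background 11.2%). The 5 are among 18 unigenes of the upper number range, or 27.8%, near the 29.1% of all unigenes of that range. Those called were 2 unigenes of hnrnpm and 1 each of hnrnpk, hnrnpr and hnrnph1l. For hnrnpk, Unigene_70076 had 140 testis and 30 ovary reads and was 6.22-fold (4.17 to 9.56) higher in testis, or 2.8-fold relative to its number range. All 3 of its unigenes together were 1.13-fold (0.988 to 1.3) higher in testis, an interval that includes the median unigene. Summed values were 2.69-fold (2.13 to 3.41) higher in testis for hnrnph1l, 2.17-fold (1.94 to 2.43) for hnrnpr and 1.68-fold (1.55 to 1.82) for hnrnpm. The hnrnpr unigenes are all in the upper range, relative to which their sum was 1.03-fold higher in ovary. On the other side were hnrnpc, which packages nascent transcripts, with 127 testis and 676 ovary reads or 3.99-fold (3.3 to 4.86) higher in ovary, and hnrnpub, 2.23-fold (1.97 to 2.51) higher in ovary. The hnrnpub unigene with the most reads, Unigene_19051, had 167 testis and 803 ovary reads. It was 3.61-fold (3.05 to 4.29) higher in ovary, or 1.85-fold relative to its number range. The hnrnpc unigene is in the upper number range, and its score, just short of the 4-fold threshold, was -3.14 when taken relative to that range.

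The Sm proteins form the ring around which most spliceosomal snRNPs are built. Their 14 unigenes of 8 symbols had a median score of -0.93, or -0.70 relative to the number ranges, and 12 of them scored below 0. Those called toward ovary were 2 (14.3%, background 11.2%). Both are among 10 unigenes of the lower number range, or 20%, near the 19.4% of all unigenes of that range. The ovary side was led by snrpd3, with 91 testis and 673 ovary reads or 5.55-fold (4.45 to 6.98) higher in ovary, and by snrpg. Relative to its number range snrpd3 was 2.84-fold higher in ovary. The snrpg unigenes had 48 and 62 testis reads against 375 and 293 ovary reads. The first was 5.86-fold (4.33 to 8.09) and both together were 4.55-fold (3.72 to 5.62) higher in ovary, or 3-fold and 2.34-fold relative to their range. The largest unigene of the ring, snrpb (Unigene_13518), had 638 testis and 2485 ovary reads. It was 2.92-fold (2.68 to 3.19) higher in ovary, or 1.5-fold relative to its range. Subunits of this same ring thus did not share a single ratio. The sum of snrpd1, with 758 testis and 906 ovary reads, was 1.12-fold (1.01 to 1.23) higher in testis, and snrpe, snrpf and snrpd2 were 1.5-fold, 1.53-fold and 1.41-fold higher in ovary. For snrpd3l, a relative of snrpd3, 115 testis and 403 ovary reads gave 2.63-fold (2.13 to 3.26) higher in ovary. Its unigene is in the upper range, relative to which it was 5.84-fold higher in ovary. Among these 8 symbols, 7 were thus higher in ovary and snrpd1 was not, and of the 7, snrpe, snrpf and snrpd2 turn to testis with equal total reads. Both unigenes of snrpe and of snrpd2 are in the lower range, and relative to it these sums were 1.3-fold and 1.38-fold higher in testis. With the libraries set to equal total reads, the median of the 14 unigenes was -0.18.

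The specific proteins of the U1 particle went apart. The sum of snrnp70, the U1-70K protein, had 431 testis and 252 ovary reads and was 2.28-fold (1.95 to 2.67) higher in testis. The sum of snrpa, the A protein of U1, had 152 testis and 712 ovary reads and was 3.51-fold (2.94 to 4.21) higher in ovary, with Unigene_16451 at 115 testis and 565 ovary reads. The C protein, snrpc, was 1.62-fold (1.37 to 1.93) higher in ovary. All 3 snrnp70 unigenes are in the upper number range and all snrpa and snrpc unigenes in the lower. Relative to their ranges, the snrnp70 unigenes had scores of -0.37 to 0.70 and those of snrpa -1.02 to -0.70, while snrpc was 1.2-fold higher in testis.

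The U2 particle with its SF3A and SF3B subunits, which hold the branch point, was among the most even roles relative to the median unigene. Of its 16 unigenes, 0 were called in either direction (backgrounds 13.8% toward testis and 11.2% toward ovary). A difference of less than 2-fold from the median unigene was seen for 12 (75%, background 45.5%). Relative to the number ranges, scores ran from -2.53 in snrpb2, past 4-fold toward ovary, to 0.98 in sf3b6. The median score was -0.42, or -0.48 relative to the number ranges, but 0.33 with equal total reads. The sum of sf3b3 was 2.09-fold (1.75 to 2.5) higher in testis and that of sf3a1 1.78-fold (1.54 to 2.06). Each is a single unigene of the upper number range, relative to which sf3b3 was 1.06-fold and sf3a1 1.25-fold higher in ovary. The small subunit sf3b5 was 2.59-fold (2.17 to 3.09) and sf3a3 1.97-fold (1.75 to 2.22) higher in ovary. Both are wholly in the lower range, relative to which they were 1.33-fold and 1.01-fold higher in ovary. The unigene with the most reads, sf3b2 (Unigene_72149), had 761 testis and 843 ovary reads, 1.20-fold (1.09 to 1.33) higher in testis, but 1.85-fold higher in ovary relative to its range. No row carried the symbol sf3b1, which was not analysed here.

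U2AF, the factor that reads the end of the intron, had 9 unigenes with a median score of 0.23, or -0.60 as deposited and -0.11 relative to the number ranges. Its large subunit u2af2b had 1095 testis and 800 ovary reads in 3 unigenes and was 1.83-fold (1.66 to 2) higher in testis. All 3 are in the upper number range, relative to which the sum was 1.22-fold higher in ovary. Most of the reads are those of Unigene_70640, with 748 in testis and 488 in ovary, a ratio of 2.04-fold (1.82 to 2.3). Its small subunit u2af1 lay at the median unigene, 1.01-fold (0.883 to 1.15) higher in ovary. Of the 9, 1 was called toward testis (11.1%, background 13.8%) and 0 toward ovary (background 11.2%). The called unigene, of u2af2a, had 11 testis and 2 ovary reads, a ratio of 7.33-fold or 3.3-fold relative to its range. The sum of the symbol, 44 testis and 70 ovary reads, did not differ from the median unigene beyond counting error.

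The minor spliceosome, which removes a rare class of introns, was represented among the members by 2 proteins of the U11/U12 particle. The unigene of snrnp25 had 35 testis and 381 ovary reads and was 8.16-fold (5.77 to 11.9) higher in ovary, or 4.19-fold relative to its number range. The unigene of snrnp35 had 26 testis and 208 ovary reads and was 6-fold (3.98 to 9.4) higher in ovary, or 3.08-fold relative to its range. Both were called toward ovary (background 11.2%), and both kept their side under all 5 scalings. All values given for the minor spliceosome rest on these 2 unigenes and do not stand for its other proteins. Outside the member names, zcrb1, named as another U11/U12 protein, was 1.18-fold (0.989 to 1.4) higher in ovary when summed. That interval includes the median unigene. Also listed were rnpc3, pdcd7 and zrsr2, whose labels do not name the particle. For rnpc3, 10 testis and 25 ovary reads gave 1.87-fold (0.87 to 4.37) higher in ovary, an interval that includes the median unigene. For pdcd7, 64 testis and 256 ovary reads gave 3-fold (2.27 to 4.01) higher in ovary, or 1.54-fold relative to its range, the lower one. The sum of the 4 zrsr2 unigenes, 90 testis and 83 ovary reads, went the other way, 1.45-fold (1.06 to 1.97) higher in testis.

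The tri-snRNP and PRPF proteins, 19 unigenes of 12 symbols, had a median score of -0.13, or 0.62 with equal total reads. Of the 18 with at least 5 units, 1 was called toward testis (5.56%, background 13.8%) and 1 toward ovary (5.56%, background 11.2%). The kinase prpf4bb, whose human relative phosphorylates proteins of the tri-snRNP, had the highest ratio of all member symbols. Its Unigene_71340 had 486 testis and 55 ovary reads and was 11.8-fold (8.9 to 15.9) higher in testis, or 5.3-fold relative to its range. The 2 other prpf4bb unigenes had 34 and 59 testis reads against 44 and 39 ovary reads. Their sum over all 3 was 5.59-fold (4.64 to 6.79) higher in testis. Its relative prpf4ba had 1 testis and 2 ovary reads, too few to place, and is the member under the minimum of 5 units.

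At the other end, snrnp27, a tri-snRNP protein, had 308 testis and 2166 ovary reads in Unigene_34881 and was 5.27-fold (4.68 to 5.96) higher in ovary. It is in the upper number range, and relative to that range it was 11.7-fold higher in ovary, the widest such difference toward ovary among the 191 members. The U5 protein snrnp40 was 3.22-fold (2.56 to 4.07) higher in ovary, or 1.65-fold relative to its range, the lower one. The larger tri-snRNP subunits prpf6 and prpf3 were 1.96-fold (1.75 to 2.2) and 1.48-fold (1.26 to 1.73) higher in testis. Each is a single unigene of the upper number range, relative to which they were 1.13-fold and 1.5-fold higher in ovary. The sum of prpf4 was 1.51-fold (1.34 to 1.71) higher in ovary. For prpf31, a protein of the U4/U6 part, 313 testis and 370 ovary reads gave 1.13-fold (0.967 to 1.31) higher in testis. That interval includes the median unigene, but relative to its range, the lower one, prpf31 was 2.2-fold higher in testis. Sums for prpf18 and prpf38b were within 1.07-fold of the median unigene. The sum of prpf38a was 2.42-fold (2.07 to 2.85) higher in ovary, or 1.24-fold relative to its range, the lower one. No row carried prpf8 or snrnp200, which were not analysed here.

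The LSm proteins held 7 of the 16 members called toward ovary and 0 of those called toward testis, among 27 unigenes of 12 symbols. That is 25.9% toward ovary, where 11.2% of all unigenes passed. The 7 are among 20 unigenes of the lower number range, or 35%, where 19.4% of all unigenes of that range passed. Their median score was -0.01, or 0.74 with equal total reads, so these 7 stand at the end of a wide group. The most uneven gene was lsm14b, which binds stored messenger RNA in the cytoplasm and is known from mouse oocytes for its part in keeping maternal transcripts. Unigene_16100 had 247 testis and 4620 ovary reads and was 14-fold (12.3 to 16) higher in ovary. Unigene_16101 had 68 testis and 722 ovary reads and was 7.96-fold (6.20 to 10.4) higher in ovary. Both are in the lower number range, and relative to it they were 7.19-fold and 4.08-fold higher in ovary. The first had the most ovary reads of any member.

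The related lsm14a symbols did not share this. The 5 unigenes of lsm14aa had 1235 testis and 1185 ovary reads together and lsm14ab had 125 testis and 100 ovary reads, or 1.39-fold (1.28 to 1.51) and 1.67-fold (1.27 to 2.19) higher in testis. The ratio of ovary to testis reads of lsm14b was 17.9 times (15.6 to 20.6) that of both lsm14a symbols together. Among the lsm14a unigenes, 4 of 6 are in the same number range as lsm14b, and their median score was 0.02. With these 4 alone, at 664 testis and 848 ovary reads, the ratio was 13.3 times.

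LSm proteins also build the ring on the U6 RNA, and with lsm1 in place of lsm8 a cytoplasmic ring that takes part in messenger RNA decay. The ring subunit found in the nuclear form alone, lsm8, had 12, 37 and 18 testis reads against 147, 229 and 80 ovary reads in its 3 unigenes. All 3 were on the ovary side, the first, Unigene_15930, by 9.19-fold (5.1 to 18.2), or 4.71-fold relative to its number range. The third, Unigene_58826, is in the upper range and was 7.41-fold higher in ovary relative to it. The sum of all 3 was 5.10-fold (3.94 to 6.7) higher in ovary. The shared subunits lsm4, lsm5, lsm6 and lsm7 were on the other side, 1.56-fold, 1.8-fold, 1.45-fold and 1.87-fold higher in testis. Of these, lsm6 is a single unigene of the upper range and was 1.53-fold higher in ovary relative to it, while lsm4 and lsm7, wholly in the lower range, were 3.05-fold and 3.65-fold higher in testis. By this measure lsm7 Unigene_13925 was 4.56-fold higher in testis and so passed 4-fold, which it did not relative to the median unigene. The cytoplasmic subunit lsm1 was 1.45-fold (1.23 to 1.71) higher in ovary. The specific subunits of the U7 particle, which cuts the ends of histone transcripts, also leaned to ovary. For lsm11, 28 testis and 260 ovary reads gave 6.96-fold (4.71 to 10.7) higher in ovary, or 3.57-fold relative to its range. For lsm10 the sum of 85 testis and 259 ovary reads gave 2.29-fold (1.78 to 2.96), with 1 of its 2 unigenes called, at 5.12-fold or 2.62-fold relative to its range. The remaining LSm gene, lsm12a, was 1.85-fold (1.67 to 2.04) higher in ovary, with Unigene_17401 called at 4.19-fold. Its 3 unigenes are in the lower range, relative to which the sum was 1.06-fold higher in testis and Unigene_17401 was 2.15-fold higher in ovary.

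**Figure D5:**
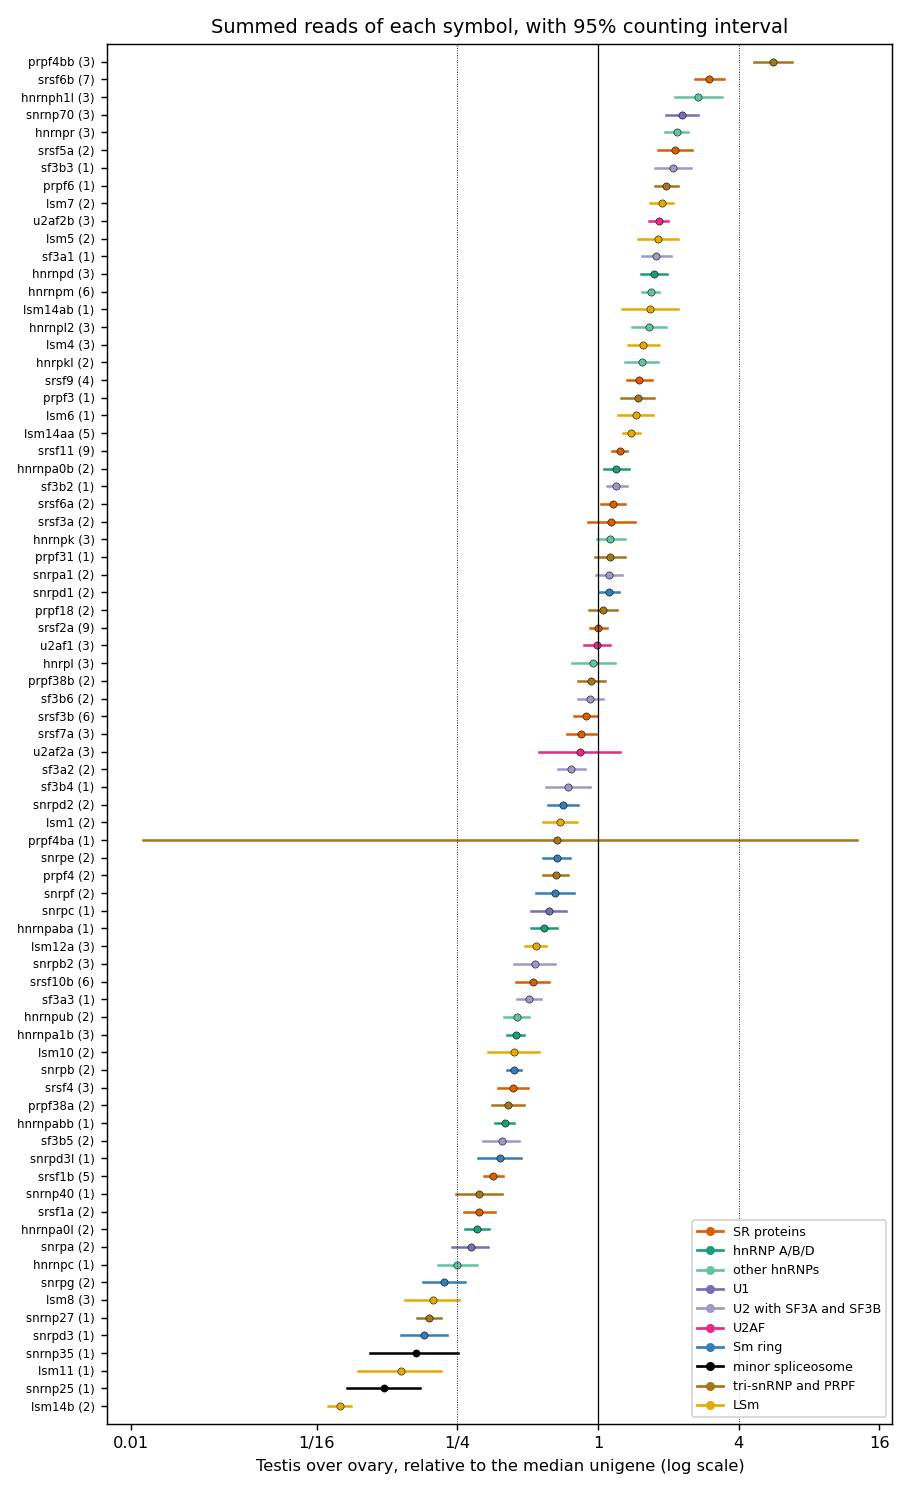
Ratio of testis to ovary reads (horizontal, log scale, relative to the median unigene) for the summed unigenes of 77 of the 78 symbols, with the 95% counting interval and the number of unigenes in brackets. Dotted lines mark 4-fold. The symbol lsm14b lies at the ovary end at 12.7-fold and prpf4bb at the testis end at 5.59-fold, and 47 of the symbols plotted lie within 2-fold.

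Summing the unigenes of each symbol lowered the share past 4-fold toward testis, 9.47% of member unigenes, but not that toward ovary, 8.42%. The backgrounds, 13.8% and 11.2% of unigenes, moved the same way. Of the 77 symbols with at least 5 units, 47 were within 2-fold of the median unigene (61%, against 51.2% of all symbols). Of these 77, 1 passed 4-fold toward testis (1.3%, background 6.61%) and 8 toward ovary (10.4%, background 13.5%). The sums of all symbols have their median 0.23 lower on the log2 scale than single unigenes, so that symbols in general lie toward ovary by this measure. The counting interval lay above the median unigene for 27 of the 78 symbols (34.6%, background 30.4%), below it for 39 (50%, background 43.7%), and included it for 12. Of the 56 symbols with several unigenes, 13 had unigenes at least 4-fold apart, and 25 had unigenes on both sides of the median. The median distance between the lowest and highest unigene of a symbol was 1.19 on the log2 scale. Unigenes of one symbol can be copies of a duplicated gene, transcript forms or pieces of a transcript, and reads can be divided among them, so the value of a single unigene is uncertain.

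Other splicing genes outside these names were read from a separate list of 95 symbols, such as regulators, kinases and assembly factors. Of these, 58 had a row, with 137 unigenes and a median score of 0.02. Of the 136 with at least 5 units, 9 were at least 4-fold higher in testis (6.62%, background 13.8%) and 7 at least 4-fold higher in ovary (5.15%, background 11.2%). The highest was mbnl3, a regulator of alternative splicing, with 130 testis reads and 1 ovary read. It is found only in the authors' testis list and not in the expression table, so its side was set by that list. With the rows found only there left out, 8 of the other splicing genes were at least 4-fold higher in testis. Next came rbm25b, a U1-associated factor, with 92 testis and 10 ovary reads in 1 of its 3 unigenes, and rbm22, an RNA-binding protein of the catalytic spliceosome, with 153 testis and 30 ovary reads in 1 of its 5 unigenes. All unigenes summed, rbm25b had 510 testis and 728 ovary reads and rbm22 had 492 testis and 617 ovary reads, both with an interval that includes the median unigene. Toward ovary lay gemin8, a part of the complex that loads Sm proteins onto RNA, with 148 testis and 1473 ovary reads. Others were coil, the scaffold of Cajal bodies, with 22 testis and 180 ovary reads in 1 unigene and 100 testis and 289 ovary reads in the other, and both unigenes of esrp2, an epithelial splicing regulator, with 21 and 30 testis reads against 219 and 218 ovary reads. The RNA-binding gene qkib had 3 unigenes on different sides, with 1 testis and 21 ovary reads, 10 testis and 13 ovary reads, and 36 testis and 10 ovary reads. These genes were named for the widest ratios after their values were seen. Relative to their number ranges, mbnl3 was 78-fold higher in testis, and the rbm25b and rbm22 unigenes 5.52-fold and 3.06-fold. By the same measure gemin8 was 3.83-fold higher in ovary, the coil unigenes 3.15-fold and 4.82-fold, and those of esrp2 4.01-fold and 2.79-fold. The first qkib unigene was then 8.08-fold higher in ovary, and the others 2-fold and 2.16-fold higher in testis.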

How the data were processed

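RNA of immature testis and ovary was extracted with TRI-reagent and made into libraries with the NEBNext Ultra RNA kit, per the labels' protocols. The aligner, assembler, counting tool and genome build are not stated here. In the deposited files the values are a signal, taken as reads per unigene divided by 1 size factor per library. They come in steps of 1.73 units in testis and 2.31 units in ovary. Dividing by the step gave whole reads within 0.01 for every value of the members. Whether a step is 1 read or more, and how the size factors were set, was not tested. The size factors multiply to 0.25 with 1 read per step and to 1 with 2. The authors' log2 fold change, column B over A, was recomputed for every member within 0.001. The authors' deposited p-value, whose adjustment is not stated, was not used. All 127 unigenes of the authors' ovary list are higher in column A and all 171 of their testis list in column B, which set the tissues of the columns. An error in the list titles would exchange every direction.

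The 147 unigenes found only in the testis list were added to the 22487 of the table. A call needed 4-fold and at least 5 units in the higher value. No count model was fitted, since 1 library per tissue leaves no spread. Intervals are Clopper-Pearson, with the median ratio taken as fixed. The calculation of scores, calls and intervals was run on simulated Poisson counts, with changes placed only in unigenes above a set level. Those counts had no step between number ranges and no spread between replicates. They check the calculation and not the calls made here. Members, roles, lists and number ranges were chosen with earlier results of these data known, and pairs of related symbols after their values were seen. Values in both libraries were given for the 10 called members farthest on each side with at least 20 reads, the unigene with the most reads in each role, and symbols called both ways. Other members are given by symbol. The values of 1 member symbol are not reported here and it is not plotted by name, but it is in the counts. Alternatives were pseudocounts of 0.1 and 10, no minimum and 20 units, 4 other scalings, folds of 2 and 8, summed symbols, and the table alone. Of 78 symbols, 39 matched RefSeq assembly ASM1834038v1, used for names only. Python 3.11.15, pandas 2.3.3, NumPy 2.4.6, SciPy 1.17.1 and matplotlib 3.10.9 were used.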

Additional observations from a re-analysis of the deposited data

How the results depend on the processing

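The trimmed mean of log ratios, a pseudocount of 0.1, no minimum, 20 units and the table alone kept every count within 1.5 times and every median within its binomial interval. As deposited, 6 members passed toward testis and 38 toward ovary, and 2 and 19 of the other splicing genes. The medians were then -0.81 for all members, -0.47 for SR proteins, -1.61 for hnRNP A/B/D, -0.22 for other hnRNPs, -1.25 for U2, -0.60 for U2AF, -3.61 for the minor spliceosome, -0.96 for tri-snRNP and PRPF, and -0.80 for the other splicing genes. With equal total reads, 26 members passed toward testis and 5 toward ovary, and 20 and 3 of the other splicing genes. The medians were then 0.76 for all members, 1.11 for SR proteins, 1.36 for other hnRNPs, -2.03 for the minor spliceosome, 0.62 for tri-snRNP and PRPF, 0.74 for LSm and 0.77 for the other splicing genes. These scalings shift every score by 0.83 downward and 0.75 upward, which is the cause by construction. Against the median of the number range, 6 members passed toward testis, 4 of them shared with the 18, and 14 toward ovary, only 6 of them shared with the 16. Of the other splicing genes 3 passed toward testis, and the medians were -0.27 for all members, -0.22 for SR proteins and -1.92 for the minor spliceosome. With a pseudocount of 10, 8 members and 4 other splicing genes passed toward testis, and the median of all members was -0.20. With the unigenes of one symbol summed and set against the median of all symbols, 1 member symbol passed toward testis (1.3%, background 7.98%) and 7 toward ovary (9.09%, background 10.6%), 1 and 3 of the other splicing genes, and the minor spliceosome was at -2.55. At 2-fold, 41 members passed toward testis and 41 toward ovary, and 28 and 24 of the other splicing genes. At 8-fold these were 5 and 3, and 2 and 1. No named member at least 4-fold from the median changed sides under any of these scalings or pseudocounts. The depth of single unigenes limits those with under 10 reads in a library, whose intervals are wide. No paired analysis was possible because each tissue has 1 library.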
